A study of Mus musculus with 22 samples.

Results

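The genes of the core circadian clock described here are Clock, Npas2, Per1, Per2, Per3, Cry1, Cry2, Nr1d1, Nr1d2 and Dbp. They are the 10 of 28099 genes in the deposited table that carry these symbols, each on 1 row. Their RNA was read in the contractile cells of the artery wall, arterial smooth muscle cells, isolated by fluorescence-activated sorting from 7 mouse tissues. Intestine had 4 libraries and 6 tissues had 3 each (stomach, bladder, kidney, lung, heart and aorta), 22 in all, and no tissue served as a reference. The labels give the genotype Cspg4-Dre/Acta2-CreERT/R26-GFP for every tissue except heart, where it is Cspg4-DreERT/Acta2-CreERT/R26-GFP, so heart and its genotype cannot be told apart. For every tissue, tamoxifen was given over 3 days, 0.75 mg for each 10 g of weight. Cells were therefore marked through the promoters of Acta2, which encodes smooth muscle actin, and of Cspg4, which encodes a proteoglycan of pericytes and other mural cells. The labels give no time of day of collection, no age or sex, and no number or pooling of animals, so p-values measure only the spread between these libraries, which may be technical.

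The clock is a loop of transcription and repression inside each cell. CLOCK or its paralogue NPAS2 pairs with BMAL1, whose gene is listed as Arntl, and this dimer binds E-boxes to activate the Per, Cry, Nr1d and Dbp genes. PER and CRY proteins then inhibit the dimer, and the nuclear receptors REV-ERB alpha and beta, encoded by Nr1d1 and Nr1d2, repress Arntl and other genes through ROR elements. DBP, with its relatives TEF and HLF, activates genes through D-boxes, where NFIL3 competes as a repressor. In mouse tissues sampled around the day, Nr1d1 and Dbp RNA are known to run roughly opposite to Arntl and Npas2 RNA, and vascular smooth muscle clocks are known for daily changes in vessel tone.

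The promoters show where these genes carry the elements of the loop. RefSeq windows of 300 bases, from 250 before to 50 after an annotated start (GRCm38.p6), were matched for 9 of the 10 genes and for Arntl. Per2 was not matched. The letters searched on both strands were the E-box CACGTG, the related E-prime box CACGTT, the D-box TTATGTAA and the ROR element TAGGTCA. They occurred in 7.15%, 4.68%, 0.938% and 2.61% of all 32851 promoter windows. The 5 windows below are shown because each holds one of these elements, which stands in capitals. A match of letters is a description and was not tested as a binding site. The first is the 5′ window of Per1 (chr11:69098699-69098998, plus strand), with an E-box 166 bases before the start.
Per1: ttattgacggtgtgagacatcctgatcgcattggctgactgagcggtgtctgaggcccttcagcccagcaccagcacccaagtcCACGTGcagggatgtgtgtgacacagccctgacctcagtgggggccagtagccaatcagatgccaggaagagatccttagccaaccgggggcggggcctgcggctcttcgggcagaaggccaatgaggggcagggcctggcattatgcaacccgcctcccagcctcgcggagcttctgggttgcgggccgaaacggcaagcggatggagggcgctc
The Cry1 window (chr10:85185005-85185304, minus strand) holds an E-box 60 bases before the start and an E-prime box, read on the other strand as AACGTG, 79 bases before it.
Cry1: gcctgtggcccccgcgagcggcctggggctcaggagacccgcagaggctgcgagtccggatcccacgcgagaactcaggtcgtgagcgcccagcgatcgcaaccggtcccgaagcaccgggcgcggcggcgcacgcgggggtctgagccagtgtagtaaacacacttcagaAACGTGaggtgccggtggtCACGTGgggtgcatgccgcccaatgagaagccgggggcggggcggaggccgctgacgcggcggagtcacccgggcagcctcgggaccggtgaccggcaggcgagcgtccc
The Nr1d1 window (chr11:98775328-98775627, minus strand) holds an E-prime box 28 bases before the start.
Nr1d1: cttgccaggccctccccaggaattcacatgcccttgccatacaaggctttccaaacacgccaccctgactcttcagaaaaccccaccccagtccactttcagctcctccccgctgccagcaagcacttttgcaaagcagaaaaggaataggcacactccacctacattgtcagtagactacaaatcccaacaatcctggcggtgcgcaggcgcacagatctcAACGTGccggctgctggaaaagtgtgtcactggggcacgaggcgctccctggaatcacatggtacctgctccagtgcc
The Per3 window (chr4:151044616-151044915, minus strand) holds D-boxes 205 and 158 bases before the start.
Per3: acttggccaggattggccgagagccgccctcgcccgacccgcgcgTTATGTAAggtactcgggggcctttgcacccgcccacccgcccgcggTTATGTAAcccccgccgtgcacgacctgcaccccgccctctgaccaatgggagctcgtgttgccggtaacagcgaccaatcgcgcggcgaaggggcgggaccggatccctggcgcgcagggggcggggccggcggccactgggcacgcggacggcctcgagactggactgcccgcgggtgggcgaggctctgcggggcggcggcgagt
One of the windows of Arntl (chr7:113207261-113207560, plus strand), the partner gene that REV-ERB proteins repress, holds a ROR element at base 31 after the start.
Arntl: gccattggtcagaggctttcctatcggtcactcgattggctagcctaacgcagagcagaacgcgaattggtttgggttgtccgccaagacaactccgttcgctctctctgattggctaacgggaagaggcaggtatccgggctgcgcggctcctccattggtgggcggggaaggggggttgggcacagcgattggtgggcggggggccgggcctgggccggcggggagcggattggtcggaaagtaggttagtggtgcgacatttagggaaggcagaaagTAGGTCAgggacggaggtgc
Cry2 has an E-prime box 166 bases before its start. The windows matched for Clock, Npas2, Nr1d2 and Dbp hold none of these letters, which says nothing of elements elsewhere.

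The deposited values are whole-number signal, that is, reads per gene scaled by a factor for each library. What 1 read was worth could be found from the spacing of low values, and dividing by it gave rebuilt reads. The shallowest libraries were aorta 1 with 629456 reads, heart 3 with 817157, aorta 2 with 1540366 and aorta 3 with 1927765, while the other 18 held 4389363 to 12708422. One read was worth between 0.4216 in intestine 3 and 9.4205 in aorta 1. All 7 smooth muscle markers (Acta2, Cnn1, Lmod1, Myh11, Myocd, Smtn, Tagln) were above 0 in every library, except Myocd at 0 in aorta 1. Sums of markers of other cells also varied, with epithelial genes at 7490 to 9995 in stomach and 64 to 146 in heart, and nephron genes at 4204 to 12800 in kidney. Their part in the values of the clock genes was not tested. In bulk RNA, fewer cells of a type and less RNA per cell cannot be told apart.

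All 10 clock genes were expressed in the sorted cells, and every one had a signal above 0 in each of the 18 deeper libraries. Per kilobase of exon, over those 18 libraries, the median level was highest for Nr1d1 at 184 and lowest for Per3 at 5.0. Between them lay Cry1 at 93.6, Npas2 at 72.0, Cry2 at 53.3, Nr1d2 at 45.3, Dbp at 30.6, Per1 at 28.8, Clock at 25.6 and Per2 at 20.6 per kilobase. Arntl, the shared partner of Clock and Npas2, had a median of 71.2. Per kilobase, Npas2 exceeded its paralogue Clock in the 21 libraries other than aorta 1, by 0.59 in kidney 3 to 3.02 in bladder 3 on the log2 scale. That order depends on the exonic lengths used, 13727 bases for Clock and 4791 for Npas2. By signal alone the order varied, with Clock higher in kidney 1 (732 against 413) and Npas2 higher in bladder 3 (577 against 203). In aorta 1, Clock rested on 1 rebuilt read and Npas2 on 4. Reads per exonic base passed 0.5 in 5 libraries for Nr1d1 and in 1 for Nr1d2. Whether signal still follows abundance at such coverage was not tested.

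**Figure D1:**
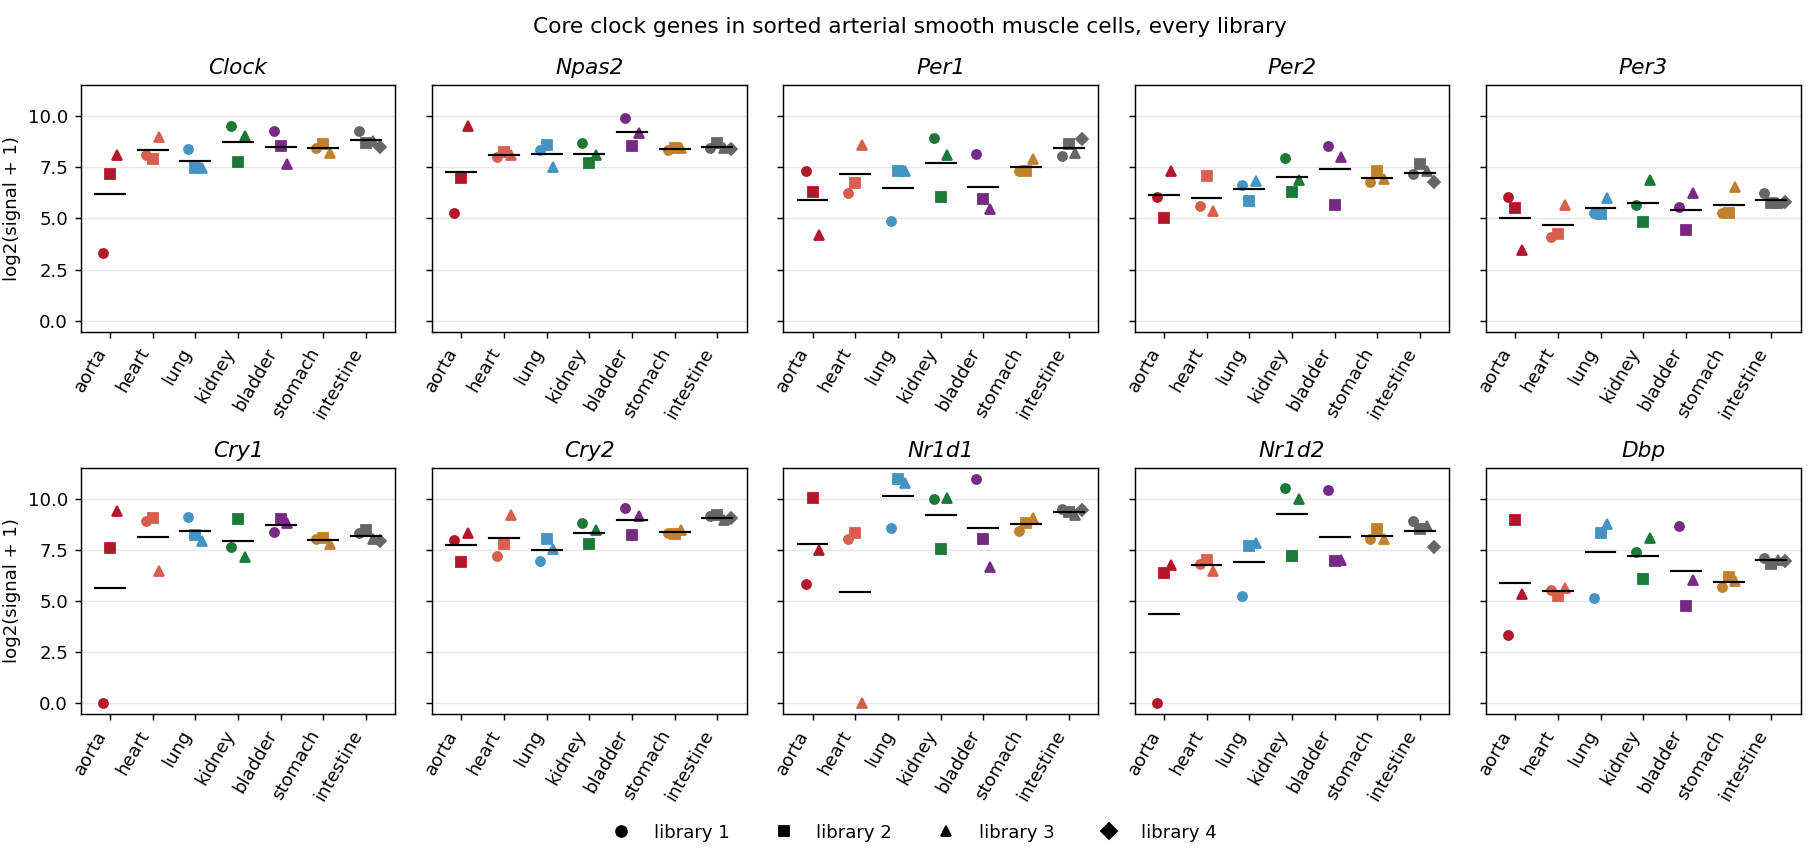
Level of each of the 10 clock genes in every library, as log2(signal + 1) on the vertical axis, by tissue on the horizontal axis. Symbols mark the library number and black bars the mean of a tissue. The single points at 0 are Cry1 and Nr1d2 in aorta 1 and Nr1d1 in heart 3, and stomach and intestine libraries lie close together.

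Across the 7 tissues, only Cry2 of the 10 clock genes passed the limma F test on log2(signal + 1), at an adjusted p of 0.0349. Of all 16917 genes tested, 59.6% passed. The other adjusted p-values were 0.054 for Nr1d2, 0.0826 for Clock, 0.159 for Per1, 0.184 for Nr1d1, 0.27 for Npas2, 0.365 for Per2, 0.488 for Cry1, 0.578 for Dbp and 0.642 for Per3. All 10 had passed the filter on low values. When the order of tissue means was read for each gene, no tissue differed from its neighbour in that order for any of the 10. Of the 70 comparisons of 1 tissue with the mean of the other 6, 4 passed, against 21.5% of such comparisons over all genes. Of the 210 comparisons between 2 tissues, 13 passed, against 20.9% over all genes, and 12 of the 13 involved aorta. Over all genes, the share called lower in aorta ran from 14.9% (against heart) to 40.8% (against intestine). In pairs without aorta the share called in 1 direction was at most 18.9%, lower in heart than in intestine. Without the aorta libraries and heart 3, Cry2 was again the only one of the 10 to pass the F test (adjusted p = 0.00105), as did 71.1% of all genes. In that fit 7 of 60 comparisons with the other tissues passed, against 30.9% over all genes, and 12 of 150 pairs, against 29.2%.

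Cry2, which encodes one of the cryptochrome repressors of CLOCK and BMAL1 (ENSMUSG00000068742, mm39 chromosome 2, 92233991 to 92264388, minus strand), was the clock gene that differed most clearly between tissues. Its signal was 574, 583, 497 and 527 in the intestine libraries and 748, 302 and 567 in bladder. It was 319, 306 and 359 in stomach, 444, 218 and 355 in kidney, and 125, 259 and 187 in lung. The remaining values were 149, 223 and 591 in heart and 254, 118 and 317 in aorta. Every intestine library lay above every lung, kidney, stomach and aorta library, while bladder and heart overlapped with intestine. Intestine was higher than the mean of the other tissues by 0.92 ± 0.32 (log2, limma standard error, adjusted p = 0.0409), as were 15.5% of all genes. Lung was lower than intestine, with a log2 difference of -1.57 ± 0.44 (adjusted p = 0.0152), as were 12.2% of all genes. Without the aorta libraries and heart 3, the intestine difference was 0.95 ± 0.23 (adjusted p = 0.00424). In that fit lung was lower than the rest (-0.94 ± 0.26, adjusted p = 0.00936), as were 20.3% of all genes. Heart, with 2 libraries left, was lower (-0.94 ± 0.30, adjusted p = 0.0319), as were 14.7% of all genes, and bladder was higher (0.81 ± 0.26, adjusted p = 0.02), as were 14.9%. The intestine call rested on a narrow margin: with 1 library left out at a time its adjusted p ran from 0.00903 to 0.115, and in 11 of 22 such fits it was lost. The F test of Cry2 was lost in 8 of the 22, with an adjusted p of up to 0.0791. It was also lost with TMM scaling (0.0535), array weights (0.234) and a replicate block (0.0556). An lncRNA gene, D930015M05Rik, overlaps Cry2 on the other strand, and the library kit does not mark strand, so its reads cannot be told apart from those of Cry2.

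Cry1, the other cryptochrome (ENSMUSG00000020038, chromosome 10, 84967564 to 85020928, minus strand), showed no difference that passed. Its signal was 329, 515 and 452 in bladder, 325, 351, 258 and 245 in intestine, 262, 270 and 223 in stomach, and 561, 300 and 242 in lung. It was 202, 519 and 144 in kidney and 482, 538 and 89 in heart. The aorta libraries read 0, 191 and 674. The 0 of aorta 1 is at least 6.76-fold below aorta 2 and at least 23.8-fold below aorta 3, taking 3 reads (a signal of 28.3) as the floor of that library. Per kilobase, Cry1 exceeded Cry2 by 3.08 in lung 1 and 2.17 in kidney 2 on the log2 scale, and lay between -0.18 and 0.19 relative to Cry2 in the 4 intestine libraries.

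Clock, one of the activator genes, was lower in aorta, where depth was also lowest. The gene (ENSMUSG00000029238, chromosome 5, 76357715 to 76452639, minus strand) had a signal of 9, 146 and 274 in aorta. It was 629, 414, 446 and 356 in intestine, 732, 214 and 520 in kidney, 617, 373 and 203 in bladder, and 347, 397 and 296 in stomach. It was 273, 239 and 510 in heart and 340, 178 and 177 in lung. Aorta 1 stood below all other libraries on 1 rebuilt read (exact 95% Poisson interval 0.239 to 52.5 in signal, for counting error only), while aorta 3 overlapped with several tissues. Aorta was lower than the mean of the other tissues, with a log2 difference of -2.23 ± 0.62 (adjusted p = 0.00653), as were 42.8% of all genes, whose median shift in this comparison was -1.04. Without aorta 1 the difference was -0.79 (adjusted p = 0.142), and the call was kept without aorta 2 or aorta 3. On rebuilt reads the log2 difference was -1.15 by edgeR (adjusted p = 0.0843) and -1.25 by DESeq2 (adjusted p = 0.026). With array weights it was -1.54 (adjusted p = 0.217).

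Npas2, the paralogue that can replace Clock (ENSMUSG00000026077, chromosome 1, 39232812 to 39402317, plus strand), had its highest tissue mean in bladder. The bladder libraries read 963, 371 and 577, and the aorta libraries 38, 126 and 746. In intestine the values were 346, 415, 344 and 334, in stomach 323, 349 and 346, and in heart 260, 301 and 275. Lung had 331, 383 and 182 and kidney 413, 212 and 273. Bladder lay above every heart and stomach library and overlapped with lung, kidney and intestine through its second library, and with aorta through aorta 3. Bladder against the other tissues stood at 1.10 ± 0.51 (adjusted p = 0.161), and at 0.94 ± 0.25 (adjusted p = 0.00822) without the aorta libraries and heart 3, where 14.9% of all genes were called higher in bladder. In that fit the F test of Npas2 gave an adjusted p of 0.0503. Processed pseudogenes or other small genes overlap Clock and Npas2 on the same strand, so a share of their reads may belong to those.

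The period genes encode the PER proteins that carry the CRY repressors. Per1 (ENSMUSG00000020893, chromosome 11, 68986043 to 69000786, plus strand) had a signal of 268, 399, 296 and 474 in intestine and 488, 65 and 274 in kidney. It was 287, 61 and 43 in bladder, 160, 162 and 237 in stomach, and 28, 162 and 160 in lung. In heart it was 74, 106 and 388 and in aorta 160, 77 and 17. All 4 intestine libraries lay above every lung, stomach and aorta library and overlapped with kidney, bladder and heart. Intestine against the others stood at 1.56 ± 0.62 (adjusted p = 0.074), and at 1.51 ± 0.52 (adjusted p = 0.0329) without the aorta libraries and heart 3, where 19.8% of all genes were called higher in intestine. The summed signal of 22 immediate early genes was 20165 to 25683 in intestine and 58783 to 113913 in aorta. In heart it was 56768 and 54808 in libraries 1 and 2, and 189247 in the shallow library 3. Such genes respond to handling and dissociation, and all 22 passed the F test, against 59.6% of all genes. Per1 is itself known to respond to such stimuli, and the part of dissociation was not tested.

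Per2 (ENSMUSG00000055866, chromosome 1, 91343704 to 91387046, minus strand) passed in no comparison. It read 374, 50 and 254 in bladder, 145, 205, 158 and 108 in intestine, 249, 77 and 119 in kidney, and 108, 157 and 122 in stomach. It read 98, 57 and 113 in lung, 66, 32 and 162 in aorta and 48, 133 and 40 in heart, so every tissue overlapped with every other. Heart 1 and 3 lay below every stomach and intestine library. Per3 (ENSMUSG00000028957, chromosome 4, 151088109 to 151129122, minus strand) was the least abundant, with 76, 53, 54 and 55 in intestine, 49, 27 and 118 in kidney, 37, 37 and 93 in stomach and 47, 21 and 76 in bladder. It was 38, 36 and 64 in lung, 66, 45 and 10 in aorta and 16, 18 and 49 in heart. Heart 1 and 2 were the lowest libraries outside aorta. Heart against the others stood at -0.89 ± 0.57 (adjusted p = 0.286), and at -1.49 ± 0.52 (adjusted p = 0.0449) once heart 3, at 6 rebuilt reads, and the aorta libraries were left out. In that fit 14.7% of all genes were called lower in heart. Camta1 overlaps Per3 on the same strand.

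The REV-ERB genes varied widely from library to library. Nr1d1 (ENSMUSG00000020889, chromosome 11, 98658758 to 98666159, minus strand) read 386, 2029 and 1782 in lung, 731, 645, 598 and 700 in intestine, 1008, 186 and 1061 in kidney and 347, 454 and 535 in stomach. It read 1997, 262 and 101 in bladder, 57, 1042 and 182 in aorta and 258, 318 and 0 in heart. All heart libraries lay below every lung, stomach and intestine library and overlapped with kidney, bladder and aorta. Heart 3 was at 0, at least 10.6-fold below heart 1 and 13.1-fold below heart 2 with a floor of 3 reads (signal 24.3). The heart difference of -3.53 ± 1.21 (adjusted p = 0.0498), a call shared by 12.4% of all genes, rested on that library: without heart 3 and the aorta libraries it was -1.04 (adjusted p = 0.335). On all rebuilt reads it was -1.74 by edgeR (adjusted p = 0.21) and -1.96 by DESeq2 (adjusted p = 0.0625), and the call was also lost with 0.5 or 5 as the added number. Thra overlaps Nr1d1 on the opposite strand, and counts without strand cannot separate their reads.

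Nr1d2 (ENSMUSG00000021775, chromosome 14, 4230569 to 4265642, plus strand) read 1479, 147 and 1029 in kidney, 1367, 124 and 129 in bladder, 490, 373, 409 and 197 in intestine and 258, 370 and 259 in stomach. It read 37, 206 and 232 in lung, 110, 126 and 89 in heart and 0, 81 and 106 in aorta. Aorta overlapped with lung and heart and lay below every kidney, bladder, stomach and intestine library. Its log2 difference between aorta and the mean of the others was -3.59 ± 1.02 (adjusted p = 0.00725). As for Clock, 42.8% of all genes were called lower in aorta, and without aorta 1 the difference was -1.40 (adjusted p = 0.166). On rebuilt reads the difference was -2.04 by edgeR (adjusted p = 0.064) and -2.21 by DESeq2 (adjusted p = 0.00842), and voom gave -4.05 (adjusted p = 0.0583). Array weights gave -2.67 (adjusted p = 0.23). Because aorta 1 is at 0, the value also depends on the number added before the logarithm, at -3.92 with 0.5 and -2.81 with 5.

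Dbp, the output gene of the loop (ENSMUSG00000059824, chromosome 7, 45354512 to 45359627, plus strand), had no tissue difference that passed. Its signal was 35, 316 and 442 in lung, 171, 67 and 270 in kidney, 139, 112, 129 and 125 in intestine and 414, 26 and 64 in bladder. It was 9, 499 and 40 in aorta, 51, 71 and 63 in stomach and 46, 37 and 49 in heart. The highest of the 22 values, in aorta 2, and the lowest, in aorta 1, came from the same tissue. Sphk2 overlaps Dbp on the opposite strand.

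The spread between libraries of 1 tissue was larger for these genes than for most genes in several tissues. In bladder the median range of the 10 genes, highest minus lowest library, was 2.26 on the log2 scale, against 1.08 for all tested genes. In kidney it was 1.92 against 0.97, in lung 1.14 against 0.71, in heart 1.64 against 1.33 and in aorta 4.22 against 1.91. Stomach, at 0.50 against 0.36, and intestine, at 0.52 against 0.58, had little spread of either kind. The number of the 10 genes above the all-gene median was 9 in aorta, 6 in heart, 10 in lung, 9 in kidney, 9 in bladder, 7 in stomach and 4 in intestine.

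**Figure D2:**
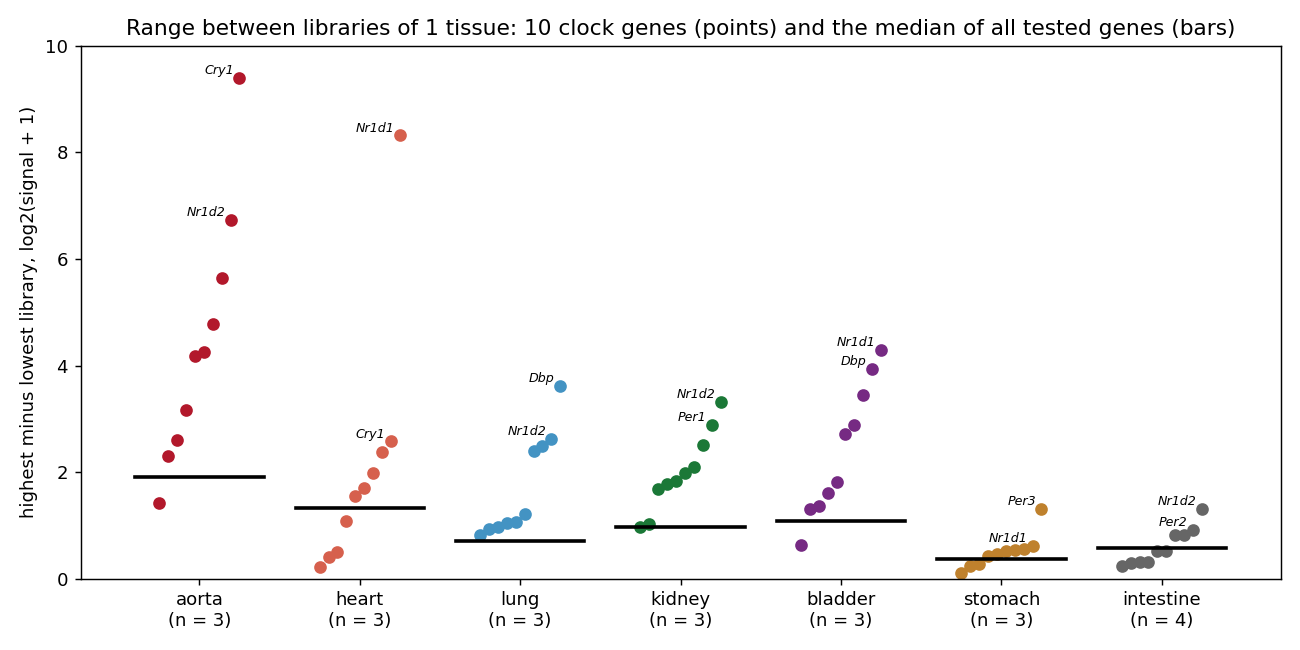
Difference between the highest and the lowest library of a tissue in log2(signal + 1) on the vertical axis, by tissue on the horizontal axis. Points are the 10 clock genes and black bars the median of all tested genes. In lung all 10 points lie above the bar and in intestine 4 of 10, and the points near 9 in aorta and 8 in heart are set by values of 0.

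Among the 10 clock genes, the spread was largest for Nr1d2, Dbp, Nr1d1 and Per1. Within-tissue standard deviations over the 18 deeper libraries, on the log2 scale, were 1.28 for Nr1d2, 1.23 for Dbp, 1.21 for Nr1d1 and 1.06 for Per1. A standard deviation as large was found in 8.82%, 10.5%, 11.2% and 16.9% of tested genes, whose median was 0.51. Per2 followed at 0.83, Per3 at 0.68, Clock at 0.58, Cry1 at 0.51, Cry2 at 0.43 and Npas2 at 0.42. Arntl was steadier, at 0.29, which 77.8% of genes reached or passed. In bladder the highest library exceeded the lowest 19.8-fold for Nr1d1, 15.9-fold for Dbp, 11.0-fold for Nr1d2, 7.48-fold for Per2 and 6.67-fold for Per1. In kidney the ratio was 10.1 for Nr1d2, 7.51 for Per1, 5.70 for Nr1d1 and 4.03 for Dbp. In lung it was 12.6 for Dbp, 6.27 for Nr1d2, 5.79 for Per1 and 5.26 for Nr1d1. Across stomach and intestine the ratio was at most 2.51, for Per3 in stomach.

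In kidney and bladder the same library was the extreme one for many of these genes. Kidney 2 had the lowest value in kidney for 9 of the 10, all but Cry1, for which it was the highest. It was the lowest kidney library for 30.5% of all tested genes and the highest for 41.2%. Bladder 1 had the highest bladder value for 8 of the 10, against 38.9% of all genes, and the lowest for Cry1 (28.7% of all genes). In stomach, library 1 was lowest for 6 and library 2 highest for 6, against 28.5% and 34.8% of all genes. In aorta, library 1 was lowest for 6 and library 3 highest for 6, against 32.5% and 33.9%. In lung the counts were nearer to the shares of all genes. Lung 1 was the lowest lung library for 5 of the 10, Per1, Cry2, Nr1d1, Nr1d2 and Dbp (38.0% of all genes). It was the highest for 2, Clock and Cry1 (33.8% of all genes). Markers of other cells also differed between the libraries of kidney, bladder and lung. Kidney 2 had Cspg4 at 65 against 2321 and 2542 in kidney 1 and 3, and a summed signal of 10 endothelial genes of 9118 against 4656 and 5083. The summed signal of 6 pericyte genes was 10666 in bladder 1, 4522 in bladder 2 and 1897 in bladder 3, and that of 7 epithelial genes 510, 552 and 4102. In lung 1, 2 and 3 the pericyte sums were 3769, 3764 and 3330 and the endothelial sums 3869, 3571 and 2625. Lung 1 was lower than lung 2 and 3 in the sums of 4 skeletal muscle genes (37 against 1359 and 206), 7 epithelial genes (237 against 750 and 441) and 7 cardiomyocyte genes (687 against 1350 and 898). The part of these cells in the clock gene values was not tested.

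**Figure D3:**
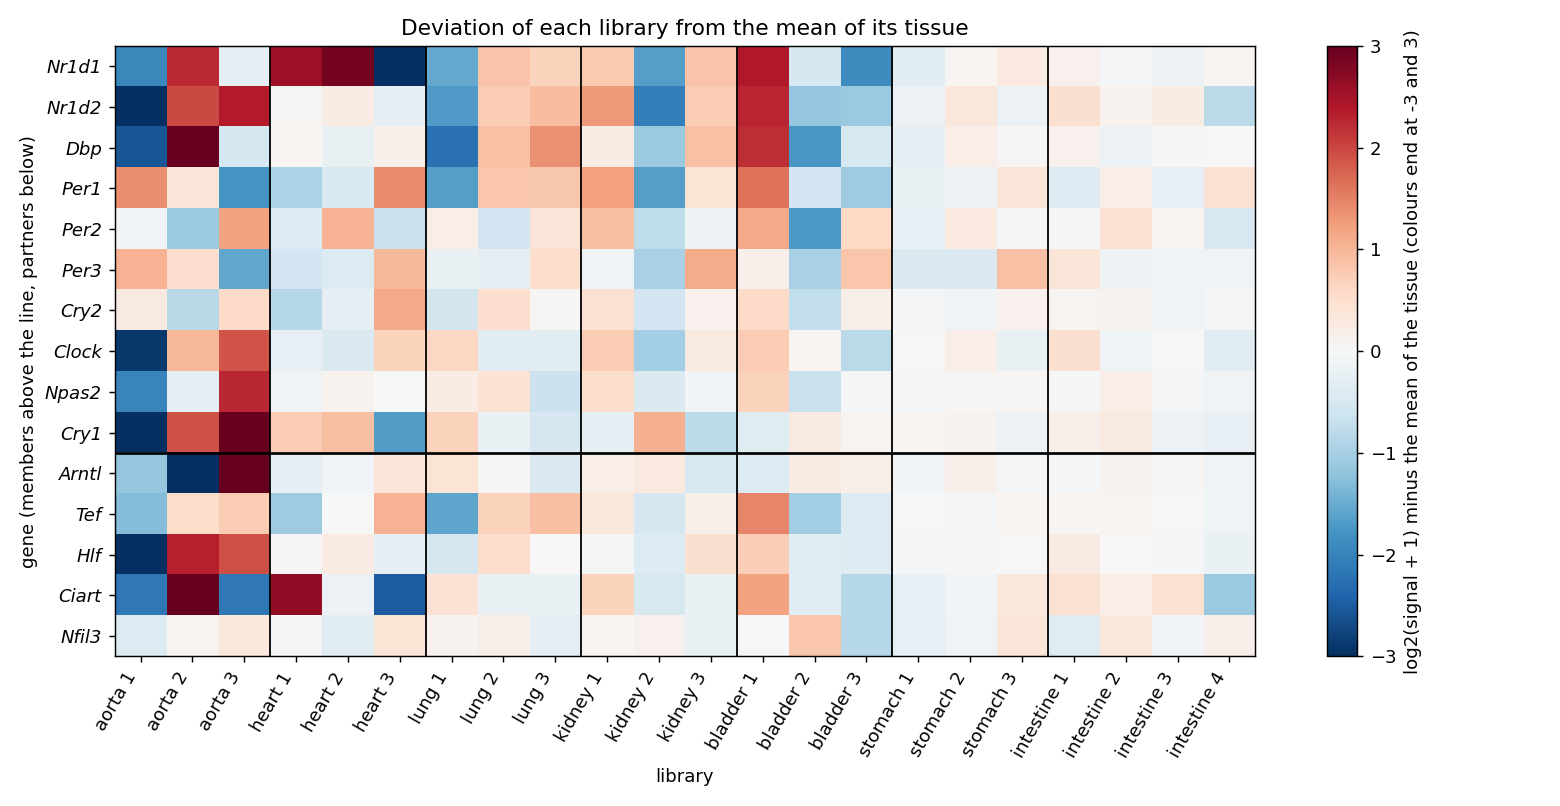
Deviation of each library (columns) from the mean of its tissue (log2, colour scale from -3 to 3) for the 10 clock genes above the line and 5 partner genes below it (rows). The strongest colours are in aorta and in Nr1d1 of heart, with Cry1 at -5.66 in aorta 1 and Nr1d1 at -5.44 in heart 3. Among the kidney, bladder and lung libraries, kidney 2, bladder 1 and lung 1 stand out in Nr1d1, Nr1d2, Dbp and Per1. Cry1 has the opposite colour there, though weakly in bladder 1 (-0.37). Stomach and intestine are mostly pale, with Ciart at -1.12 in intestine 4.

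In the 18 deeper libraries, deviations from the tissue mean moved together for Per1, Nr1d1, Nr1d2 and Dbp. This was not confined to clock genes. Of 11389 eligible genes, those picked as most like Dbp included Dennd11 and Apc2, with r of 0.94 and 0.93 over the same 18. Over these libraries, Pearson's r with Per1 was 0.93 for Nr1d1, 0.89 for Nr1d2 and 0.83 for Dbp, with Spearman's rho at 0.90, 0.77 and 0.80. Leaving out the 2 libraries farthest from the median of Per1 gave r of 0.91, 0.81 and 0.75. Cry1 ran the other way, at -0.80 with Per1 (rho -0.83, and -0.62 without those 2 libraries). For the other clock genes, r with Per1 was 0.79 for Cry2, 0.46 for Npas2, 0.41 for Per2, 0.38 for Clock and 0.31 for Per3. Npas2 stood at 0.46 with Nr1d1, 0.52 with Nr1d2, 0.36 with Dbp and -0.0 with Arntl. Without the 2 libraries farthest from the median of Npas2, these values were 0.21, 0.26, -0.14 and 0.45. Among the partners, over all 18 libraries, Tef stood at 0.85 with Per1, Hlf at 0.74, Ciart at 0.21 and Nfil3 at 0.07. Arntl stood at -0.66 with Per1, -0.71 with Nr1d1, -0.82 with Dbp and 0.80 with Cry1. The coefficients are descriptions without a test: the points of 1 tissue share its mean, values of 1 library share its scaling, and libraries such as kidney 2 also differ in other cells' markers. The shallow libraries changed many of these coefficients. With heart 3, over 19 libraries, r was 0.09 for Per1 with Nr1d1, 0.77 with Nr1d2, 0.77 with Dbp, -0.80 with Cry1, 0.88 with Tef, 0.54 with Hlf and -0.38 with Arntl. Over those 19 libraries Arntl stood at -0.68 with Nr1d1, -0.74 with Dbp and 0.18 with Cry1. With the aorta libraries too, over all 22, r with Per1 was 0.04 for Nr1d1, 0.13 for Nr1d2, 0.43 for Dbp, -0.64 for Cry1, 0.50 for Tef, -0.21 for Hlf and -0.46 for Arntl. Over all 22, Arntl stood at -0.25 with Nr1d1, -0.38 with Dbp and 0.41 with Cry1. Npas2 there stood at 0.2 with Nr1d1, 0.72 with Nr1d2, 0.27 with Dbp and 0.69 with Arntl.

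**Figure D4:**
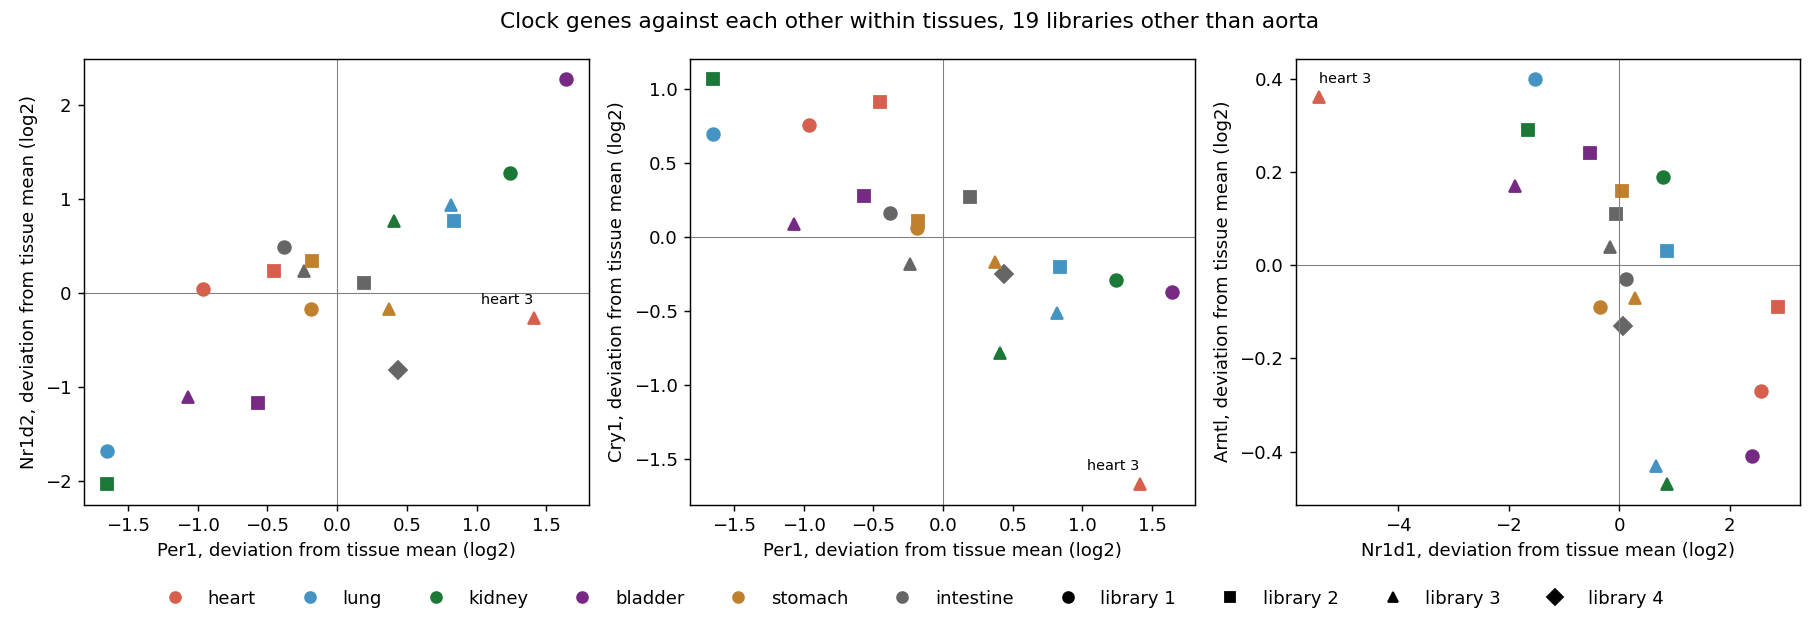
Deviations from the tissue mean (log2) in 19 libraries other than aorta, as Nr1d2 against Per1, Cry1 against Per1 and Arntl against Nr1d1. Colours mark tissues and symbols library numbers. Nr1d2 rises with Per1, Cry1 declines with Per1, and heart 3 lies far to the left in the third panel because its Nr1d1 value was 0.

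In aorta, libraries 2 and 3 differed widely, in both directions. Markers of other cells differed between the aorta libraries too. In aorta 1, 2 and 3 the sums were 423, 933 and 18332 for 4 skeletal muscle genes and 66, 996 and 0 for 5 lung epithelium genes. The pericyte sums were 2854, 3571 and 9241. The part of these cells in the values below was not tested. Aorta 2 had Nr1d1 at 1042 and Dbp at 499, with Arntl at 4, which was 1 rebuilt read (exact 95% Poisson interval 0.103 to 22.6 in signal). Aorta 3 had Nr1d1 at 182 and Dbp at 40, with Arntl at 908, Npas2 at 746 and Cry1 at 674. Per1, at 77 in aorta 2 and 17 in aorta 3, and Per3, at 45 and 10, were also higher in aorta 2. These values rested on 19 and 5 rebuilt reads for Per1 and on 11 and 3 for Per3. The exact 95% Poisson intervals of Per3 overlapped, at 22.3 to 79.8 and 2.04 to 29.0 in signal. Dbp in aorta 3 rested on 12 reads and Per2 in aorta 2 on 8. Per2 (32 and 162), Cry2 (118 and 317), Nr1d2 (81 and 106) and Clock (146 and 274) were higher in aorta 3, as was Tef (211 and 241). Aorta 1 was low for most of them, with Nr1d1 at 57, Dbp at 9 and Arntl at 19. Per kilobase, Nr1d1 stood at -1.02 against Arntl on the log2 scale in aorta 3. The same difference was between 1.40 and 1.79 in the 4 intestine libraries and between 1.02 and 1.62 in the 3 stomach libraries. In bladder it was 3.17, -0.41 and -1.71, in kidney 2.32, -0.21 and 3.05, and in lung 0.08, 2.84 and 3.12. In heart it was -0.28, -0.16 and -8.93, the last with Nr1d1 at 0. Aorta 1 and 2 stood at 2.83 and 8.99, on 2 and 1 rebuilt reads of Arntl.

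Of 22 partner and regulator genes of the clock, 10 passed the F test across tissues, against 59.6% of all genes. Nfil3, the D-box repressor, had a signal of 250 ± 49.4 (SD, n = 4) in intestine and 270 ± 62.6 (SD, n = 3) in stomach, against 1328 ± 361 in heart and 1000 ± 160 in lung (adjusted p = 9.56e-06). No stomach or intestine library, at 190 to 341, reached the lowest of the other tissues, at 507. Bhlhe40, a repressor that competes for E-boxes (adjusted p = 1.69e-05), was 2249 ± 391 in heart and 2070 ± 18.9 in bladder, against 627 ± 269 in aorta and 750 ± 192 in lung. Its relative Bhlhe41 (adjusted p = 0.0188) had 225, 82 and 160 in bladder and 11 to 21 in intestine, with a single high value of 747 in kidney 1. Csnk1d, a kinase that phosphorylates PER (adjusted p = 0.00112), was lowest in aorta, at 483 ± 70.2, and highest in stomach, at 1407 ± 108. Sirt1, a deacetylase (adjusted p = 0.0162), was 459 ± 215 in bladder and 96.7 ± 39.4 in lung. Ddb1, an adaptor of ubiquitin ligases (adjusted p = 0.039), was 2339 ± 150 in stomach and 867 ± 1031 in aorta. The Ddb1 call was lost in 14 of 22 fits that left out 1 library, with an adjusted p of up to 0.116.

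Arntl, Tef and Hlf bear most directly on the clock genes above. Arntl read 768, 870 and 1189 in heart, 543, 853 and 816 in bladder, 892, 690 and 500 in lung and 493, 529 and 312 in kidney. In intestine it was 527, 582, 553 and 493, in stomach 419, 501 and 426, and in aorta 19, 4 and 908. Its adjusted p was 0.024, and 0.0135 without the aorta libraries and heart 3, but 0.545 under edgeR on all rebuilt reads. Its call was lost in 2 of 22 fits that left out 1 library, those without aorta 1 or aorta 2, at up to 0.162. Hlf was 242, 491 and 337 in lung and 170, 133 and 251 in kidney, and at most 107 in every other library (adjusted p = 0.0429). Without the aorta libraries and heart 3 its adjusted p was 1.21e-05. With 1 library left out the Hlf call was lost in 17 of 22 fits, at up to 0.108, and it was lost with 0.5 as the added number (0.0672), median-of-ratios scaling (0.0507) and the replicate block (0.0718). Tef had 1690, 293 and 456 in bladder and 1004, 556 and 892 in kidney, against 303 to 328 in stomach and 342 to 397 in intestine, with an adjusted p of 0.075. Tef was highest in bladder 1 and lowest in kidney 2 within their tissues, the same libraries as for Nr1d1. Of 8 clock output genes and 8 glucocorticoid-responsive genes, 6 and 4 passed the F test, against 59.6% of all genes.

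By likeness of deviations over the 19 libraries other than aorta, among 11389 eligible genes, the genes closest to Dbp were Apc2 (r = 0.93), Dennd11 (0.90), Col6a5, Fhip1a, Gja5 and Yap1 (each 0.89). The most opposite were Zfp944 (-0.86), Eif3e and Bccip (each -0.85). Those closest to Npas2 were Rbpj (0.94), Epn2 (0.91), Nfx1, Pptc7 and Ddx42 (each 0.90) and Ambra1 (0.89), and the most opposite were Slc35b1 (-0.77), Tusc1 and Ndufb1 (each -0.76). None of the other clock genes was among these lists, although Nr1d2 stood at 0.88 with Dbp. The genes were picked as extremes of many, so the coefficients describe these libraries and carry no test.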

How the data were processed

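Per the labels' protocols, no more than 10 ng of RNA from the sorted cells was made into libraries with SMART-Seq v4, which copies full-length transcripts and does not mark strand. The tools named per the submitters' processing notes, with neither role nor order, were DESeq, DESeq2 1.36.0, featureCounts 2.0.4, STAR 2.7.10a, Picard 3.0.0 and Trimmomatic 0.39, and the build mm39. A single table of 28099 genes was deposited, whose 22 columns hold signal, which the values show to be whole numbers scaled per library. The worth of 1 read, between 0.3 and 12, was taken as the step most likely to give the values from 15 to 1500 in a library. On simulated data 17 of 18 steps were found within 1%. Signal divided by this step gave rebuilt read counts, and 3 reads set the floor of a library. Reads carry no molecular identifiers, so intervals and floors cover counting error only.

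The design had been written for counts where possible. Since the deposited values are scaled signal, limma-trend served as the main test (R 4.3.3, limma 3.58.1). It was run on log2(signal + 1) of the 16917 genes that reached 10 in 3 or more libraries. Where a library is at 0, a difference on this scale depends on the added 1 and is no bound. The 22 libraries were fitted together in 7 groups by their tissue label. A moderated F test, 7 comparisons with the mean of the other tissues and 21 tissue pairs were adjusted over all genes (Benjamini-Hochberg, threshold 0.05). edgeR 4.0.16 and DESeq2 1.42.0 were run on rebuilt reads as alternatives, DESeq2 with a likelihood ratio test across tissues. The limma script was tested on simulated data with known changes. Exonic lengths came from GENCODE M21 (GRCm38), by gene identifier for 96.2% of genes, and promoter sequences from RefSeq (GRCm38.p6). Descriptive values and plots were made in Python 3.11.15 with numpy 2.4.6, pandas 2.3.3, scipy 1.17.1 and matplotlib 3.10.9.

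The clock genes, partner genes and other lists were chosen with earlier results of these data known. The rule named all 10 clock genes, the up to 8 partner genes past the F test with the largest range of tissue means, Arntl, Tef and Hlf, and for Dbp and Npas2 the 6 most similar and 3 most opposite genes. In 24 pairs of libraries of 1 tissue the lowest median chi-square per gene was 2.59, against 0.455 for sampling noise, so no 2 libraries were counted as 1.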

Additional observations from a re-analysis of the deposited data

Results flagged for a closer look

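Only intestine, with 4 libraries, was large enough to be checked for a single library far from the others. Of the 32 genes checked there, 4 had one, and chance flags about 1 in 20. Npas2 was at 415 in intestine 2, with the other 3 libraries at 334, 344 and 346. Per3 was at 76 in intestine 1, with the others at 53, 54 and 55. Among the partner genes, Csnk1d was at 1365 in intestine 2 against 1290, 1294 and 1297, and Fbxl21, which encodes an F-box protein of the CRY degradation machinery, was at 1 in intestine 4 against 11, 12 and 13. The gap to the nearest library divided by the range was 0.852 for Npas2, 0.913 for Per3, 0.907 for Csnk1d and 0.833 for Fbxl21.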

How the results depend on the processing

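The 4 differences between a tissue and the others that had passed, for Clock, Nr1d2, Nr1d1 and Cry2, kept their sign under every alternative that could be run. F tests and counts have no direction. Of 1286 values for single genes under alternatives, 1121 kept their side of the threshold, 107 lost it and 58 gained it. The number of clock genes past the F test was 1 in the main analysis. It was 2 with log2(signal + 5), with edgeR and with DESeq2, where a likelihood ratio test took the place of the F test. It was also 2 with edgeR on rebuilt reads without the aorta libraries and heart 3, an alternative chosen after seeing the data. It was 0 with TMM scaling, array weights or a replicate block, and 0 to 4 with 1 library left out at a time, the 4 being without aorta 3. The 4 calls of a tissue against the others became 2 without a filter, 2 with edgeR, 9 with array weights, 2 with the block, 7 without the aorta libraries and heart 3 by limma and 7 by edgeR, and 2 to 6 with 1 library left out. The 13 calls between tissue pairs became 27 with array weights, 6 with edgeR, 6 without the aorta libraries, 7 with the block, and 6 (without aorta 1) to 28 (without aorta 3) with 1 library left out. The 10 partner genes became 6 with array weights, 16 without the aorta libraries and heart 3 and 17 in the added edgeR fit, and 8 to 15 with 1 left out. Over all genes, 10087 became 4422 with array weights and 9022 to 11478 with 1 left out. The causes were not tested.

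No general pairing by replicate number was seen in the deviations. Those of 63 same-numbered pairs had correlations from -0.1 to 0.26, only 3 of them over 0.1. Their median was -0.01, against 0.01 for other numbers. The labels do not say whether same-numbered libraries share an animal, and these correlations cannot exclude it. The replicate block, fitted without intestine 4, therefore stands as an alternative only. A single read was worth 9.4205 in aorta 1, and the clock genes had values of 0 in aorta 1 and heart 3 alone. The part of depth in the aorta calls of Clock and Nr1d2 and the heart call of Nr1d1 was not tested. With heart libraries left out in turn, the Nr1d1 difference in heart ran from -4.97 to -0.81.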
